A study of Mus musculus with 9 samples.

Results

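The genes described here are the potassium channel subunit genes of the mouse brain, taken as every gene of the count table whose mouse symbol is Kcn, 1 or more letters and a number. There were 92 such genes among the 49315 of the table. Transcript abundance was measured by polyA-selected RNA-seq of whole brain from wild-type C57BL/6J males. The comparison was between 5 young mice, labelled 3 months old (3 or 4 months in the study's methods), and 4 old mice of 33 months, and asked which channel transcripts differed with age. Every mouse was wild-type and untreated, and each library came from the whole brain of 1 mouse, so p-values measure the spread between mice of one strain and sex.

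Potassium channels let potassium leave or enter the cell along its gradient, and they set the resting potential, end the action potential and time the interval to the next one. A pore is built from 4 subunits or, in the K2P family, which carries tandem pore domains, from a pair of them, and accessory proteins that form no pore change its gating or its delivery to the membrane. In the brain, neurons use the voltage-gated (Kv) and calcium-activated families, astrocytes clear potassium through inward rectifiers (Kir), and the cells of vessels and choroid plexus use sets of their own.

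The 92 genes comprised 30 voltage-gated pore subunits, 10 silent modifier subunits that form channels only together with Kv pore subunits, 15 accessory subunits, 8 calcium- or sodium-activated pore subunits, 15 inward rectifiers and 14 K2P channels. The selectivity filter, the narrow stretch of the pore that lets potassium pass and holds sodium back, was then searched for in their sequences. The search took the longest coding sequence of each gene in the GENCODE M21 annotation (GRCm38), translated it, and looked for serine or threonine, any residue, glycine, then tyrosine, phenylalanine or leucine, then glycine. All 15 accessory genes had 0 matches and all 14 K2P genes had 2. A single match was found in 28 of the 30 voltage-gated genes, in all 8 calcium- or sodium-activated genes, in all 15 inward rectifiers and in all 10 silent modifiers. The other 2 voltage-gated genes, Kcna6 and Kcnh2, had 2 matches each. Over all 21765 protein-coding genes searched in the same way, 5.38% held at least 1 match, so a match is a description of the letters and not proof of a filter, and the matches counted include both of Kcna6 and both of Kcnh2. The filter stretches of 7 pore-forming genes that passed the test of age are shown because the results turn on these channels, as the coding strand from 18 bases before to 18 bases after the 3 filter codons, which are in capitals (glycine, the residue between and glycine).
Kcna2: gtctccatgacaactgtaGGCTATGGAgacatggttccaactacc
Kcna5: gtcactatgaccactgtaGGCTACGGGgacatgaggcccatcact
Kcnd2: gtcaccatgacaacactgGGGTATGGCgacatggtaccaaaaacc
Kcnn1: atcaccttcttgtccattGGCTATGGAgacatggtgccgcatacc
Kcnj8: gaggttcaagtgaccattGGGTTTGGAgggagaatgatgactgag
Kcnk2, first filter: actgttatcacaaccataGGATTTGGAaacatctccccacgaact
Kcnk2, second filter: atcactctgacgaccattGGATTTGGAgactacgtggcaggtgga
Kcnk10, first filter: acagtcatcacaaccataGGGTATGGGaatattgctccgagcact
Kcnk10, second filter: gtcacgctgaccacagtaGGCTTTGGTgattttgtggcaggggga

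In GRCm38 these stretches lie in coding exons at chr3:107105212-107105256 (Kcna2, + strand, exon 3 of 3), chr6:126533727-126533771 (Kcna5, - strand, exon 1 of 1), chr8:70850639-70850683 (Kcnn1, - strand, exon 4 of 9) and chr6:142566430-142566474 (Kcnj8, - strand, exon 3 of 3). The stretches of Kcnd2, Kcnk2 and Kcnk10 are joined across an intron in the transcript. Kcna2 and Kcnn1 shared the same 9 bases, GGCTATGGA, which was also the commonest spelling over the 93 matches, found at 9 of them, and 37 different spellings occurred in all. Kcne2, which also passed the test, codes for an accessory subunit of 123 residues and had no match.

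Library totals ranged from 14229259 to 21150439 counts, with medians of 18219839 in young and 17689652 in old mice (exact two-sided permutation test of the means, p = 0.698; the smallest p the 126 splits allow is 0.00794). Of the 92 genes, 80 passed the filter on low counts (about 10 counts in at least as many libraries as the smaller age holds) and were tested within one model over all 18492 genes that passed. Neuronal markers were abundant in every library, as the labelled tissue requires, with the 5 markers Snap25, Syt1, Rbfox3, Tubb3 and Map2 summing to 4493 to 4991 CPM (counts of a gene per 1000000 counts of its library). Markers of cerebellar Purkinje and granule cells (Pcp2, Ppp1r17, Calb1, Gabra6 and Cbln3) varied more: they summed to 600, 448, 604, 544 and 584 CPM in young mice 1 to 5 and to 515, 312, 530 and 361 in old mice 1, 3, 4 and 5. The 3 olfactory bulb markers (Eomes, Doc2g and Cdhr1) summed to 122 in old mouse 5 and 57.5 in young mouse 2 against 12.5 to 44.2 in the other mice. In whole tissue, fewer cells of a type and less RNA per cell cannot be told apart.

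Most channel transcripts differed little between the ages, and those that passed the test were mainly lower in old mice. At an adjusted p under 0.05 (edgeR quasi-likelihood test, Benjamini-Hochberg over all 18492 genes), 10 of the 80 tested genes differed, which is 12.5% beside a background of 11.0% of all genes tested. Lower in old brains were 8 genes, among them Kcnj10, Kcne2, Kcna2, Kcnd2, Kcnn1, Kcnk2 and Kcnk10, or 10% of those tested against 4.89% of all genes. Kcnj8 and Kcna5 were higher, 2.5% against 6.09%. The sizes were modest: only Kcne2 passed both that threshold and an absolute log2 fold change of 0.58, or 1.25% against 2.50% of all genes. At an unadjusted p under 0.05, 19 of the genes were lower and 7 higher. The share over all genes was not counted at that threshold, here or for the classes and lists below. The median log2 fold change (old minus young) was -0.07 over the 80 genes and -9.2e-05 over all genes, and 51 of the 80 (63.75%) had a negative value against 50.0% of all genes. Together the 92 genes took 0.584 to 0.618% of the counts in young and 0.554 to 0.578% in old libraries, ranges that did not overlap.

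**Figure D1:**
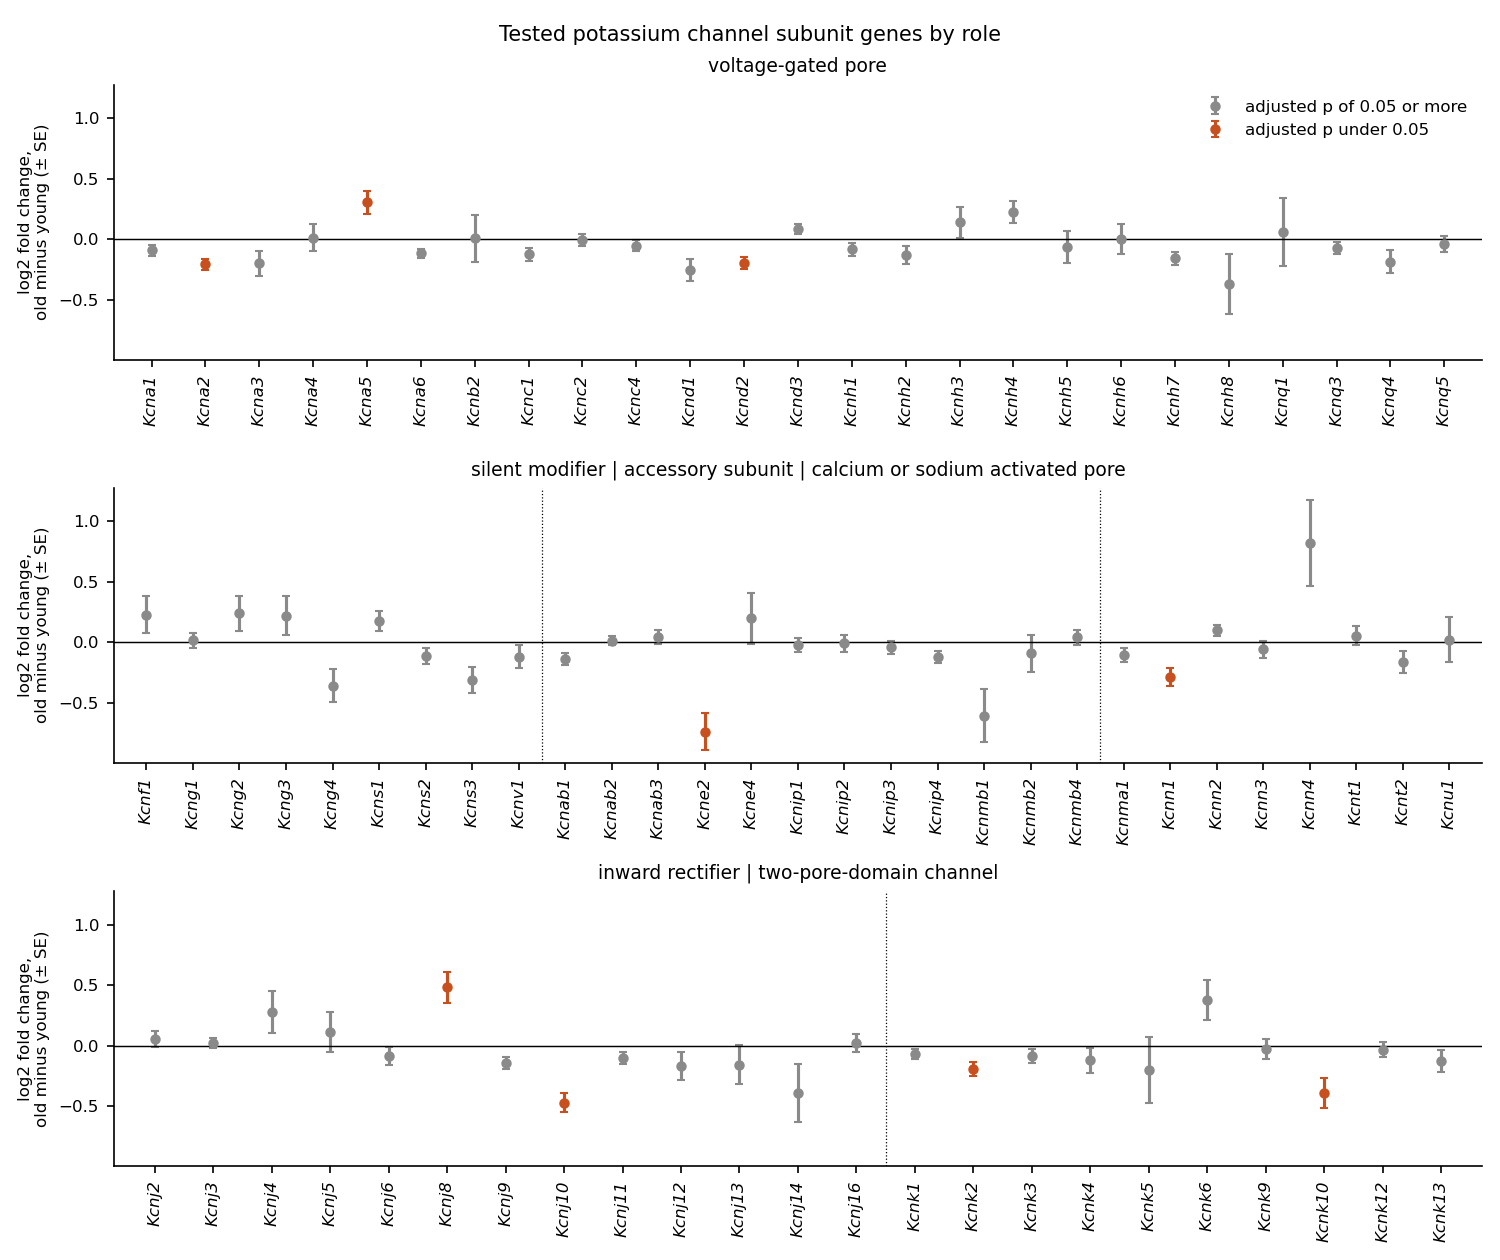
Log2 fold change (old minus young, vertical axis, log2 of CPM) of 77 of the 80 tested potassium channel subunit genes, grouped by role and subfamily; points are estimates, bars are ± SE and orange points have an adjusted p under 0.05. Of the 9 orange points, 7 lie below 0, and most grey points lie within 0.3 of 0.

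Overlap between the individual mice gave a second view. In 7 of the 80 genes every old mouse lay below every young mouse (8.75%, against 6.08% of all genes tested), among them Kcnj10, Kcne2, Kcnn1, Kcna6, Kcns3 and Kcnmb1. The reverse held for Kcnj8, Kcna5 and Kcnd3 (3.75%, against 6.50%). Kcna2, Kcnd2, Kcnk2 and Kcnk10 passed the test although at least 1 old mouse lay above the lowest young one.

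Among the inward rectifiers, 13 of 15 genes were tested, and 1 fell and 1 rose (median log2 fold change -0.08). Kcnj10 codes for Kir4.1, the channel through which astrocytes take up and redistribute the potassium that active neurons release. It measured 310, 285, 336, 313 and 351 CPM in young mice 1 to 5 and 195, 236, 235 and 255 in old mice 1, 3, 4 and 5. The ages did not overlap. Its mean fell from 319 ± 25.0 (SD, n = 5) to 230 ± 25.4 (n = 4), a log2 fold change of -0.47 (SE 0.080, edgeR adjusted p = 0.0047). The call held in each of the 19 alternative settings, with adjusted p values from 2.4e-19 to 0.034. None of the 5 astrocyte markers passed the test: Aqp4 had a log2 fold change of -0.13, Aldh1l1 0.06, Slc1a2 0.01, Slc1a3 0.06 and Gja1 -0.12, with a median of 0.01 and 1 of the 5, Gja1, at an unadjusted p under 0.05, and their summed level was 3118 to 3465 CPM in young and 3234 to 3356 in old mice. Kir4.1 is also made by oligodendrocytes, whose markers went in both directions, with Mbp (0.26) and Mobp (0.33) higher and Mog (-0.22) lower. Kcnj16, which codes for Kir5.1, the subunit that joins Kir4.1 in astrocytes, had a log2 fold change of 0.02 (SE 0.075, adjusted p = 0.89).

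Kcnj10 and Kcnj9 lie next to each other on chromosome 1, on opposite strands and 11.9 kb apart. Kcnj9, a G protein-gated rectifier (Kir3.3) of neurons, had a log2 fold change of -0.14 (SE 0.053) and missed the threshold at an edgeR adjusted p of 0.090. It spanned 117 to 135 CPM in young and 107 to 125 in old mice, so the ages overlapped. Kcnj4, a strong rectifier (Kir2.3) of forebrain neurons, spread widely within each age, from 54.8 to 93.1 in young and from 71.7 to 95.7 in old mice, and its log2 fold change of 0.28 (SE 0.174) had an adjusted p of 0.37. Kcnj14 (Kir2.4) had the fifth most negative fold change of those tested, -0.39, on 1.99 to 3.23 CPM in young and 1.01 to 2.74 in old mice, with an SE of 0.24 and an adjusted p of 0.33.

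Kcnj8, the gene of Kir6.1, the pore of the ATP-sensitive potassium channel of vascular mural cells, showed the larger of the 2 rises that passed the test. Its level was 3.71, 3.54, 3.64, 3.43 and 3.71 CPM in the young mice and 4.62, 5.78, 5.53 and 4.28 in the old ones. Each old mouse lay above each young mouse, and the old mice were also the more scattered. The mean went from 3.61 ± 0.12 (SD, n = 5) to 5.05 ± 0.71 (n = 4), a log2 fold change of 0.48 (SE 0.13, edgeR adjusted p = 0.021). Without old mouse 3 or without old mouse 4 the adjusted p passed 0.05, and over the alternatives it ran from 0.017 to 0.50. Abcc9, the gene of the sulfonylurea receptor SUR2 that partners Kir6.1, is the neighbouring gene on chromosome 6, on the same strand and 16.2 kb away, and it also rose, from 11.8 ± 1.24 to 15.7 ± 0.67 CPM (log2 fold change 0.40, SE 0.082, adjusted p = 0.0046). Exons of Abcc9 are overlapped on the opposite strand by 5330439B14Rik. None of the 4 mural cell markers passed the test and 0 had an unadjusted p under 0.05, with log2 fold changes of -0.16 for Pdgfrb, 0.08 for Rgs5, 0.09 for Vtn and -0.01 for Acta2 and summed levels of 189 to 216 CPM in young and 195 to 233 in old mice. The neighbouring pair of the pancreatic and neuronal form, Kcnj11 (Kir6.2) and Abcc8 (SUR1), which lie 3.8 kb apart on chromosome 7, had log2 fold changes of -0.10 each, with adjusted p values of 0.22 and 0.65.

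**Figure D2:**
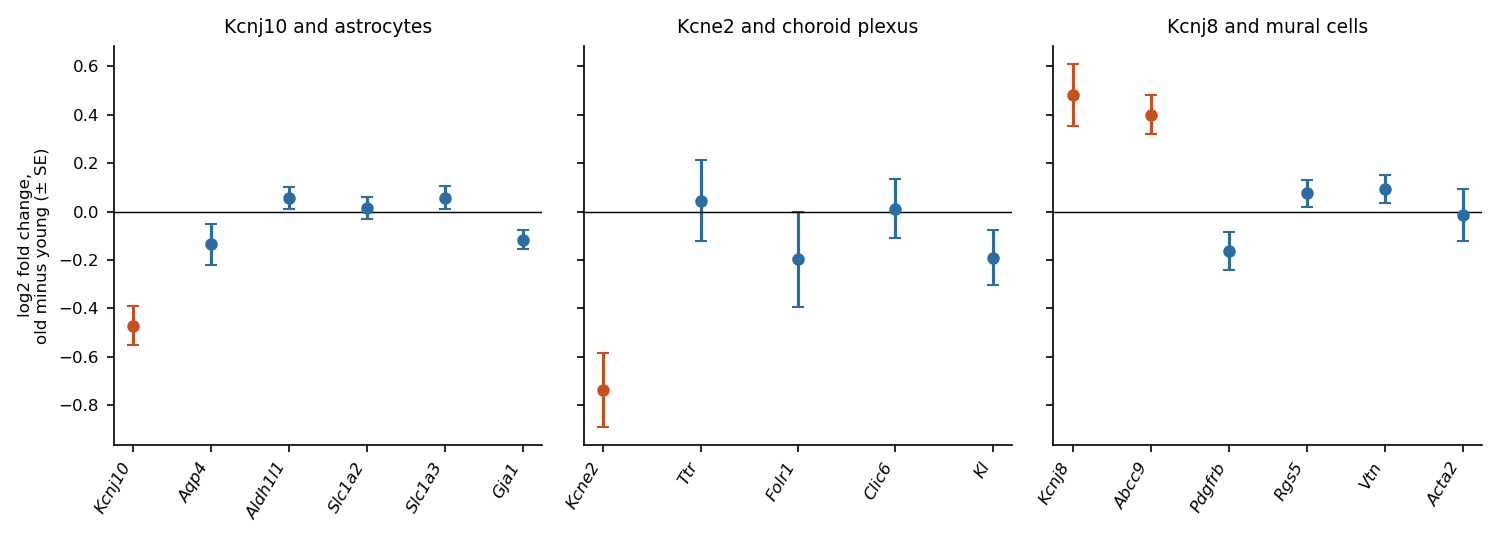
Log2 fold change (old minus young, ± SE, vertical axis) of Kcnj10, Kcne2 and Kcnj8 with its partner Abcc9 (orange) beside the markers of the astrocytes, choroid plexus and mural cells in which they are used (blue). Kcnj10 at -0.47 and Kcne2 at -0.74 lie below each of their markers, and Kcnj8 at 0.48 and Abcc9 at 0.40 lie above each of theirs.

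The accessory subunits were 15 genes, of which 12 were tested, 1 fell and 0 rose. Kcne2 codes for a short single-pass protein that joins Kv pores and in the brain is best known from the choroid plexus epithelium, which secretes cerebrospinal fluid. It had the largest fall of all 80 genes. The young mice measured 4.23, 4.09, 5.84, 4.73 and 5.87 CPM and the old mice 2.92, 3.39, 2.95 and 2.58, with no overlap. This is a change from 4.95 ± 0.86 (SD, n = 5) to 2.96 ± 0.33 (n = 4), a fall of 40.0% (log2 fold change -0.74, SE 0.15, edgeR adjusted p = 0.0048). As with Kcnj10, the call held in each of the 19 alternatives (adjusted p from 9e-05 to 0.035). The 4 choroid plexus markers Ttr, Folr1, Clic6 and Kl summed to 530, 589, 685, 525 and 652 CPM in young mice 1 to 5. In old mice 1, 3, 4 and 5 the sums were 607, 665, 735 and 431. None of the 4 passed the test in edgeR, and 0 had an unadjusted p under 0.05 (log2 fold changes 0.05, -0.20, 0.01 and -0.19). These markers were not used as a covariate in any of the 19 alternatives, and the part of choroid plexus content in the Kcne2 values was not tested. Kcnj13 (Kir7.1), another channel of that epithelium, had a log2 fold change of -0.16 (SE 0.16, adjusted p = 0.59) and ranged from 3.30 to 5.70 in young and 3.23 to 4.54 in old mice.

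The other accessory genes did not pass. Kcnmb1, a beta subunit of the BK channel that is known from smooth muscle, had the second most negative fold change of the 80 genes at -0.60, with an SE of 0.22 and an edgeR adjusted p of 0.087. Its level was 1.31 to 1.85 CPM in young and 0.766 to 1.27 in old mice, close together but without overlap. Kcnab1, which codes for a Kv beta subunit that speeds the inactivation of Kv1 channels, had a log2 fold change of -0.14 (SE 0.046, adjusted p = 0.065), whereas Kcnab2, the most abundant of all the channel genes, was at 0.02 (SE 0.037, adjusted p = 0.84), with 401 to 421 CPM in young and 387 to 431 in old mice. The KChIP genes, whose calcium-binding proteins join Kv4 channels, all had values below 0 (4 of 4, from -0.12 to -0.005), and Kcnip4 had the lowest p of them (-0.12, adjusted p = 0.14).

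Of the 30 voltage-gated pore genes, 28 were tested, 3 fell and 1 rose (median log2 fold change -0.08), and 19 of the 28 had a negative value. Kcna2 codes for Kv1.2, which sits in the axon beside the nodes of Ranvier and holds back repetitive firing. Its level was 465, 406, 469, 467 and 453 CPM in young mice and 381, 388, 415 and 383 in old mice. Young mouse 2 lay apart from its group and below old mouse 4, and every other young mouse lay above all old mice. The mean went from 452 ± 26.5 (SD, n = 5) to 392 ± 15.6 (n = 4), a fall of 13.3% (log2 fold change -0.21, SE 0.045, edgeR adjusted p = 0.0064), and the call held without any single mouse.

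Kcna5 (Kv1.5), which is made in vascular muscle and glia among other tissues, was the only Kv1 gene whose rise passed the test. It measured 6.85, 8.02, 6.53, 7.25 and 8.03 CPM in young and 9.40, 9.52, 8.92 and 8.45 in old mice, without overlap. The rise from 7.33 ± 0.68 (SD, n = 5) to 9.07 ± 0.49 (n = 4) had a log2 fold change of 0.30 (SE 0.095) and an edgeR adjusted p of 0.047, just under the threshold. It was the least stable of the 10 calls: only without young mouse 2 or young mouse 5 did it remain among the 9 fits that left out 1 mouse, and over the alternatives its adjusted p ran from 0.038 to 0.69. Kcna5, Kcna1 and Kcna6 follow each other on the minus strand of chromosome 6. Kcna1 (Kv1.1) had a log2 fold change of -0.09 (SE 0.044, adjusted p = 0.20), and Kcna6 (Kv1.6) had -0.12 (SE 0.040, adjusted p = 0.068), with the old mice at 65.0 to 70.1 CPM just under the young ones at 70.7 to 75.6. On chromosome 3, Kcna3 (Kv1.3), 63.1 kb from Kcna2 on the same strand, had a log2 fold change of -0.20 like its neighbour but with an SE of 0.10 and an adjusted p of 0.23.

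Kcnc1 (Kv3.1), whose channel closes fast and lets neurons fire at high rates, and the silent subunit gene Kcng4 were set beside the summed Purkinje and granule cell markers, of which none passed the test but 1, Calb1, had an unadjusted p under 0.05. The 5 markers had log2 fold changes from -0.45 for Calb1 (edgeR adjusted p = 0.055) to -0.27 for Cbln3, and young mouse 2 and old mouse 3 had the lowest sums of their ages. Kcnc1 was 401 in young mouse 2 and 369 in old mouse 3, against 404 to 459.5 CPM in the others. Its log2 fold change was -0.12 (SE 0.054, edgeR adjusted p = 0.16). With the mean log2 CPM of the 5 markers, not their sum, as a covariate, this became -0.01. That setting was added after the data were seen. Kcng4, at 36.8 to 47.1 in young and 27.2 to 43.4 in old mice, moved from -0.36 (SE 0.14, adjusted p = 0.15) to -0.15 in that fit. For Kcna2 the covariate left -0.15 with an adjusted p of 0.084, while the log2 fold changes of Kcnj10 (-0.49, adjusted p = 0.034) and Kcne2 (-0.68, adjusted p = 0.035) stayed close to their first values and past the threshold. In that fit 7 of the 80 channel genes passed the test, beside 1442 of all 18492 genes, where the fit without the covariate called 2031. These 7 were all lower in old mice: Kcna3, Kcnd1, Kcne2, Kcnh7, Kcnj10, Kcnk2 and Kcnma1. The part of cerebellar content in the falls was not tested beyond that fit.

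**Figure D3:**
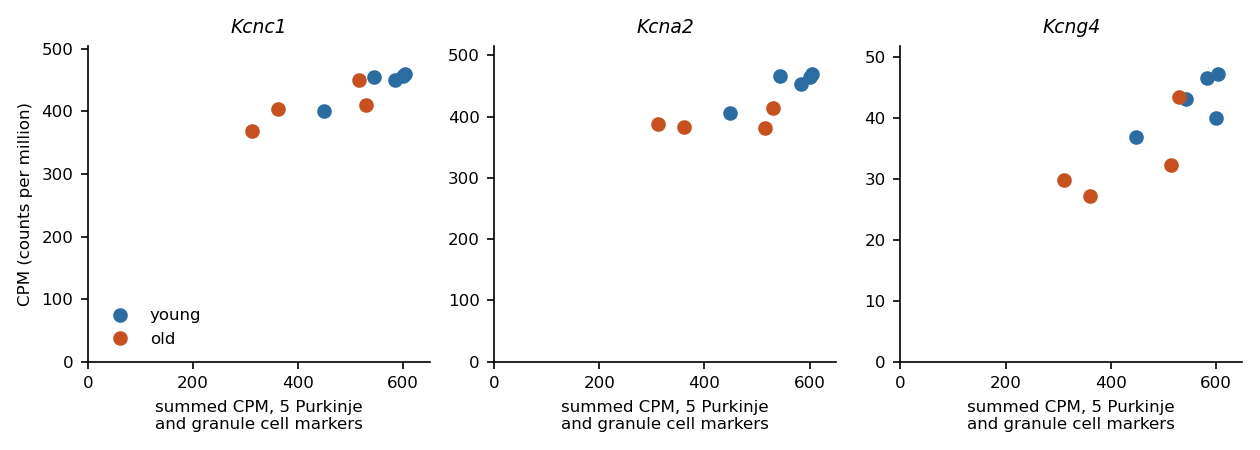
CPM of Kcnc1, Kcna2 and Kcng4 (vertical axis) against the summed CPM of 5 Purkinje and granule cell markers (horizontal axis) in each of 5 young (blue) and 4 old (orange) mice. Old mice 3 and 5, with marker sums of 312 and 361, and young mouse 2, with 448, lie at the left, and the lowest Kcnc1 (369, old mouse 3) and Kcng4 (27.2, old mouse 5) values are among them.

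In the Kv4 family, whose A-type current delays the return to threshold in dendrites, Kcnd2 (Kv4.2) measured 148, 141, 142, 126 and 140 CPM in young and 130, 123, 114 and 122 in old mice. Only young mouse 4 fell into the old range. The mean went from 140 ± 8.09 (SD, n = 5) to 122 ± 6.27 (n = 4), a log2 fold change of -0.19 (SE 0.047, edgeR adjusted p = 0.013). The call held without any single mouse. With the mean log2 CPM of the cerebellar markers as a covariate the log2 fold change stayed at -0.19, but the edgeR adjusted p was 0.054. Over all alternatives the adjusted p ran from 9.7e-05 to 0.31. Kcnd3 (Kv4.3) lay the other way, with the old mice at 99.7 to 109 just above the young mice at 91.6 to 99.2, but its log2 fold change was 0.09 and its adjusted p 0.17. Kcnd1 had -0.25 (SE 0.091, adjusted p = 0.087). The difference between these members was not tested.

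The Kv7 and Kcnh families gave no call. In the Kv7 family, whose M-current damps repetitive firing, 4 of 5 genes had values below 0. Among the 8 Kcnh genes, Kcnh7 had -0.16 (adjusted p = 0.070) and Kcnh3 0.14 (adjusted p = 0.55).

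None of the 9 tested silent modifier genes passed. Kcns3 (Kv9.3) came closest, at 5.97 to 7.35 CPM in young and 5.05 to 5.64 in old mice, with no overlap, a log2 fold change of -0.31 (SE 0.11) and an edgeR adjusted p of 0.068. At an unadjusted p under 0.05, 2 of the class were lower and 1 higher, DESeq2 called 1, Kcng4, and the median log2 fold change was 0.02.

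Of the 8 calcium- or sodium-activated pore genes, all were tested and 1 fell. Kcnn1 codes for SK1, a small-conductance channel that opens on internal calcium and follows the action potential with a hyperpolarization. It measured 14.0, 15.4, 13.7, 14.2 and 14.5 CPM in young and 12.3, 12.4, 12.1 and 10.2 in old mice. There was no overlap, and old mouse 5 stood below the other old mice. The mean went from 14.3 ± 0.64 (SD, n = 5) to 11.8 ± 1.05 (n = 4), a log2 fold change of -0.29 (SE 0.078, edgeR adjusted p = 0.024). Without young mouse 2 or old mouse 5 the adjusted p passed 0.05, and it ran from 0.013 to 0.23 over the alternatives. Exons of Kcnn1 are overlapped on the opposite strand by A230052G05Rik. Kcnn4, the intermediate-conductance channel of blood and immune cells, had the highest fold change of the 80 genes (0.82) on very few counts, at 0.261 to 0.556 CPM in young and 0.372 to 1.04 in old mice, with an SE of 0.36 and an adjusted p of 0.15. Its counts were 5 to 9 in young and 7 to 19 in old libraries. Only old mice reached 10 counts, so its place among the 80, and thus its rank, depends on the old values. Only 10 of the 19 alternatives tested Kcnn4. Beside it, 3 of 4 blood markers (Hba-a1, Hbb-bs and Alas2) were higher in old mice, with summed levels of 79.6 to 107 in young and 119 to 373 CPM in old mice, and the part of blood in the Kcnn4 values was not tested. Kcnt2, a sodium-activated channel gene, had -0.16 (SE 0.090, adjusted p = 0.29).

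The K2P genes, which carry the background leak current, leaned to one side: 10 of 14 were tested, 9 of those 10 had values below 0, and the median was -0.10. Kcnk2 and Kcnk10, which code for the related channels TREK-1 and TREK-2 that respond to membrane stretch and fatty acids, were the 2 that fell. Kcnk2 measured 53.4, 55.9, 48.2, 48.7 and 45.4 CPM in young and 44.5, 45.6, 43.9 and 42.0 in old mice, where young mouse 5 lay within the old range. Its mean went from 50.3 ± 4.25 (SD, n = 5) to 44.0 ± 1.51 (n = 4), a log2 fold change of -0.20 (SE 0.058, edgeR adjusted p = 0.036). Kcnk2 exons are overlapped on the opposite strand by A430027H14Rik.

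Kcnk10 measured 9.30, 11.5, 7.42, 8.36 and 8.65 CPM in young mice. The old mice were at 7.12, 6.56, 7.77 and 6.16, and only old mouse 4 lay above young mouse 3. The log2 fold change was -0.39 (SE 0.12, edgeR adjusted p = 0.047), from 9.05 ± 1.53 (SD, n = 5) to 6.90 ± 0.70 (n = 4). Both TREK calls rested on single mice: Kcnk2 was lost without young mouse 1 or 2 or old mouse 1, 4 or 5 (adjusted p 0.0024 to 0.34 over all alternatives), and Kcnk10 without young mouse 1, 2 or 5 or old mouse 1, 3 or 5 (0.0064 to 0.13). The single K2P gene above 0 was Kcnk6 (0.38, SE 0.16, adjusted p = 0.16), at 3.34 to 6.28 in young and 4.75 to 5.91 in old mice. The highest young value, 6.28, came from young mouse 4, whose 5 microglia markers also summed to 258 CPM against 179 to 195 in the other young mice and 245 to 267 in old mice, and the part of microglia in Kcnk6 was not tested. Kcnk1 (TWIK-1), the most abundant K2P gene, was at -0.07 (SE 0.045, adjusted p = 0.36).

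**Figure D4:**
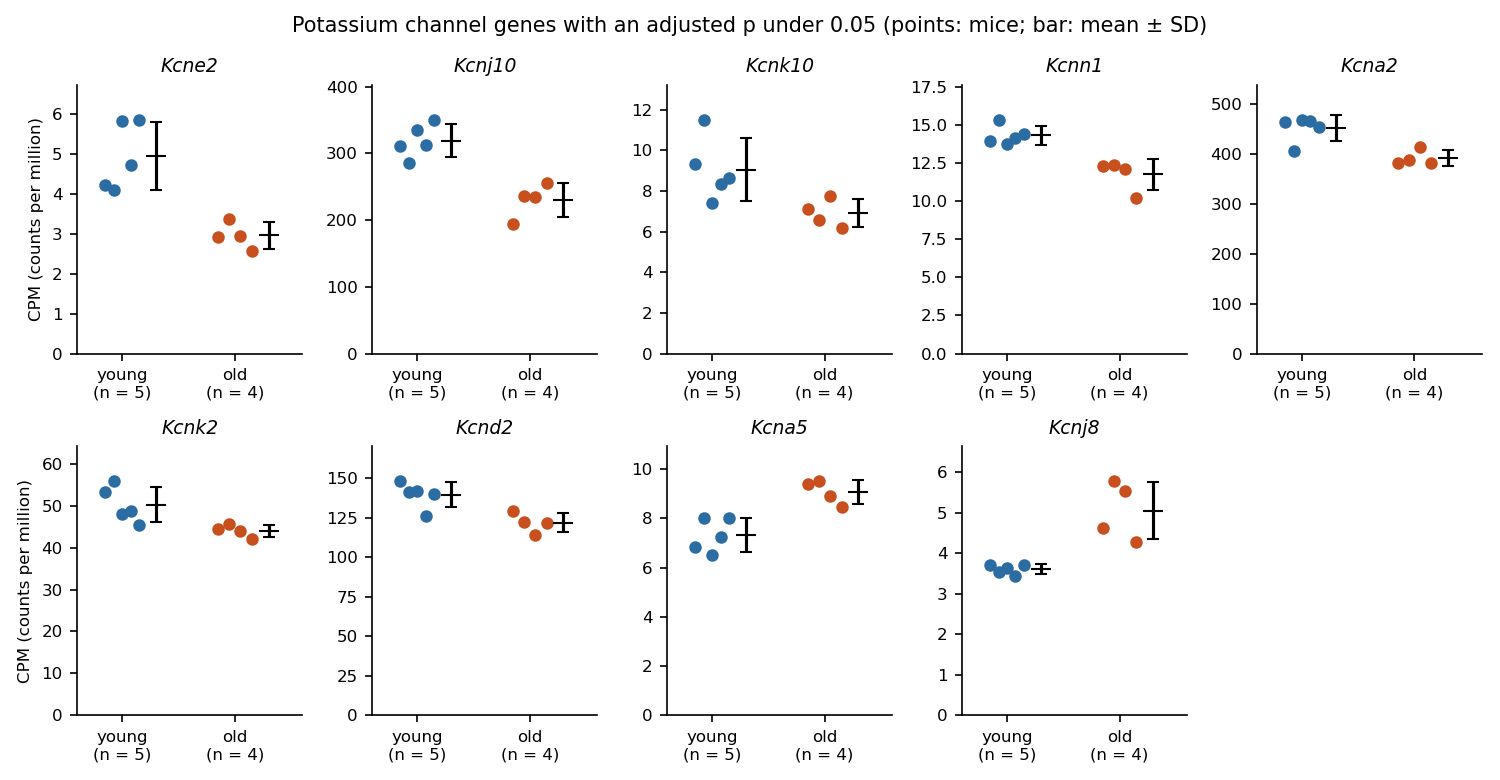
CPM (vertical axes, each from 0) of 9 potassium channel genes with an adjusted p under 0.05 in 5 young (blue) and 4 old (orange) mice; points are mice and black bars the mean ± SD. Kcne2, Kcnj10, Kcnn1, Kcna5 and Kcnj8 show no overlap between the ages, and the other 4 show a slight one.

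The neuronal marker list stood beside the falls in neuronal channels: of its 5 genes, Tubb3 (-0.22) and Map2 (-0.14) were lower in old mice and 0 higher, the median was -0.04, and the summed levels of 4609 to 4991 in young and 4493 to 4746 CPM in old mice overlapped. Of interneuron markers only Vip (0.41) changed. Of the oligodendrocyte precursor markers only Gpr17 (-0.83) did, and Tmem119 (0.53) of microglia and Flt1 (0.25) and Pecam1 (0.38) of endothelial cells were higher in old mice, while the ependymal, striatal and olfactory bulb lists had 0 calls in edgeR and 1, 0 and 0 genes at an unadjusted p under 0.05. The part of cell composition in the channel results was not tested further.

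Genes whose proteins assemble with, anchor or regulate these channels were described beside them, in a list that also held the cation channel gene Hcn2. Of the 34 genes on this partner list, 33 were tested. Of these 9 fell, or 27.3% against 4.89% of all genes tested, and 1, Abcc9, rose, or 3.03% against 6.09%, with a median log2 fold change of -0.10. In 11 of the 33 every old mouse lay below every young mouse (33.3%, against 6.08% of all genes) and in 1 above (3.03%, against 6.50%). The list was chosen with earlier results of these data known, so these shares describe it and are not a test. Hcn2 (-0.31), one of those that fell, codes for a hyperpolarization-activated cation channel. Cntnap1 (-0.29), the gene of Caspr at the paranode, and Adam22 (-0.14), Adam23 (-0.20) and Lgi2 (-0.35), of the LGI complex that sits with Kv1 channels, also fell. So did Dlg4 (-0.17), the gene of the scaffold PSD-95, Dpp6 (-0.12), which codes for a Kv4 partner, and Vapb (-0.12), whose product tethers Kv2 clusters to the endoplasmic reticulum. Hcn2 went from 230 ± 14.8 (SD, n = 5) to 185 ± 10.7 CPM (n = 4, SE of the log2 fold change 0.050, edgeR adjusted p = 0.00078), and Lgi2 from 149 ± 5.21 to 117 ± 10.7 (SE 0.052, adjusted p = 0.00041). Exons of Cntnap1 are overlapped on the opposite strand by Plekhh3. Of 17 genes for sodium-potassium and proton-potassium pumps, their FXYD regulators and potassium-chloride cotransporters, 16 were tested, and only Fxyd1, the gene of the pump regulator phospholemman, passed the test (0.36, SE 0.066, adjusted p = 0.0021), from 29.5 ± 1.36 to 37.9 ± 4.11 CPM. At an unadjusted p under 0.05, 5 of the 16 were lower and 4 higher. The summed level of the list was 8419 to 8699 CPM in young and 7896 to 8335 in old mice, without overlap.

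Levels of different channel genes were compared on the deposited TPM (transcripts per 1000000 transcripts of a library), which are per transcript length. Kcnab2 was the most abundant with a median of 169 TPM over the 9 mice, and other abundant genes were Kcnj10 (126), Kcnc1 (107), Kcnk1 (95.4), Kcnj4 (87.0), Kcna2 (85.4), Kcna1 (71.7), Kcnj9 (68.8) and Kcnh3 (67.6). The order of neighbours was firm near the top: Kcnj10 lay above Kcnc1 in 8 of 9 mice and Kcnc1 above Kcnk1 in 9. Kcnk1 exceeded Kcnj4 in only 6 mice and Kcnj4 exceeded Kcna2 in 4, so Kcnj4 is not separable in rank from either. Kcnk1 and Kcna2 were not set against each other. Between libraries TPM moved with rRNA-like transcripts, which took 11.1 to 43.1% of it, so the comparison of the ages rests on the counts, and TPM entered it only as an alternative setting. An order by CPM divided by length shared 9 of the 10 names. That length was derived from the deposited counts and TPM, so the order is no separate check on the TPM.

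**Figure D5:**
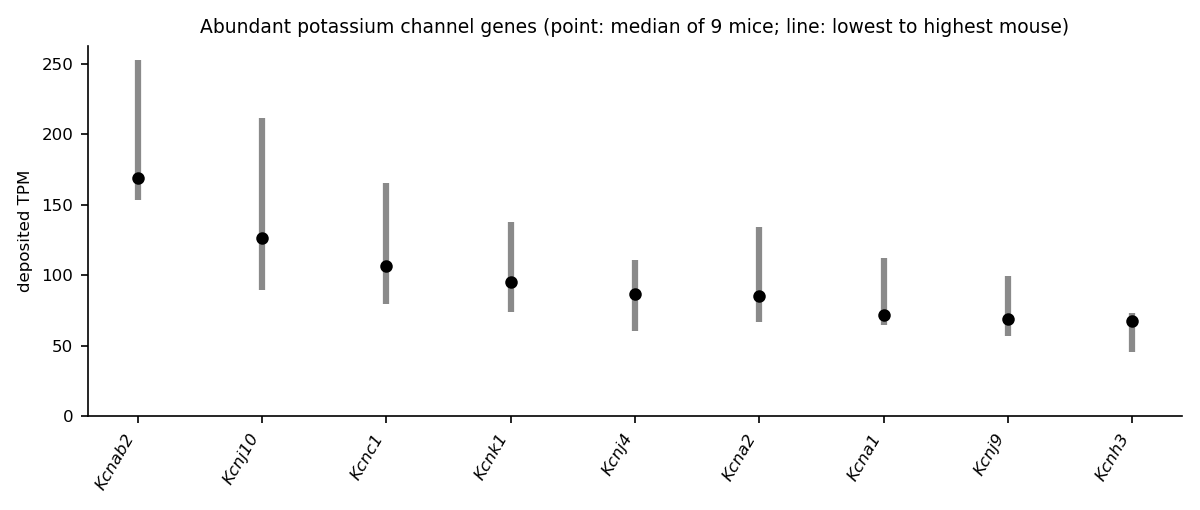
Deposited TPM (vertical axis, from 0) of 9 of the 10 most abundant potassium channel genes; points are medians of 9 mice and lines run from the lowest to the highest mouse. Medians descend from 169 for Kcnab2 to 67.6 for Kcnh3, and the ranges of neighbouring genes overlap between mice.

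Spread between mice of one age differed among channel genes. The pooled SD of log2 CPM had a median of 0.13 over the 80 tested genes. It was lowest for Kcna6, Kcnab2 and Kcnd3, at 0.04 to 0.05, and highest for Kcnj14 (0.44), Kcnn4 (0.43) and Kcnq1 (0.41), which were all detected at low counts. The 12 genes under the filter were Kcnk16, with 0 counts in every library, which allows up to 3 counts, or 0.142 to 0.211 CPM depending on the library (counting error only), Kcnj1 (0 to 1 count), Kcne1 (0 to 2), Kcnj15 (0 to 2), Kcna7 (0 to 3), Kcnmb3 (1 to 4), Kcne3 (0 to 4), Kcnk18 (0 to 4), Kcna10 (0 to 4), Kcnk7 (0 to 7), Kcnv2 (2 to 12) and Kcnk15 (4 to 39). For 24 of the 80 tested genes an exon is shared in position with a gene of the other strand, and since the sources used here do not state whether these libraries were strand-specific, it is not known whether reads of the 2 genes were told apart there.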

How the data were processed

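RNA-seq was performed on whole-brain polyA-selected RNA of 5 young and 4 old mice. According to the study's methods, the authors' provider trimmed reads with Trimmomatic, aligned them to Ensembl GRCm38 with STAR and counted uniquely mapped exon reads with featureCounts, and these counts per gene were deposited without normalization. The authors also deposited normalized counts, a signal in which each library's counts are divided by 1 number, for 17994 genes, and TPM values scaled to 1000000 in each library, for which the gene lengths used are not given in the sources used here. Whether the libraries were strand-specific, which set how reads were counted, is likewise not given. Each table holds 1 further column, headed as replicate 2 of the old group, which matched none of the samples described here and was not analysed.

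Symbols came from GENCODE M21 (48970 of 49315 gene identifiers matched). Counts were tested with edgeR 4.0.16 (R 4.3.3): filterByExpr (minimum count 10, total 15), TMM scaling and a robust quasi-likelihood fit with age as the only term, with Benjamini-Hochberg adjustment over all 18492 genes and a threshold of 0.05. CPM values use TMM-scaled library sizes. Alternatives used DESeq2 1.42.0 and limma 3.58.1 (pseudocount 1), other filters and scalings, and each mouse left out in turn. The mean log2 CPM of each of 2 marker lists also served as a covariate, added after the data were seen. Named genes were all members that passed, the 10 highest by median TPM, the 5 largest changes in each direction and the lowest p of each subfamily with at least 2 tested genes. Of the partner and marker lists, genes that passed were named, and markers beside a member. Some further genes, mainly partners, neighbours and relatives of these (Kcnj16, Kcnj13, Kcnj11, Abcc8, Kcna3, Kcna6, Kcnd1 and Kcnd3), were added after their values were seen. Some genes that this rule names and 1 sequence are not reported here. The members and lists were chosen with earlier results of these data known. The fit was tested on simulated counts of 18492 genes. With 0 genes changed it called 0. With 200 genes changed it recovered 38.5% at a log2 change of 0.3 and 80% at a change of 1. False calls were 8.33% and 6.43% of those made. A gene that did not pass is thus not shown to be unchanged.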

Additional observations from a re-analysis of the deposited data

Results flagged for a closer look

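Among 58 combinations of a named channel gene and an age, 4 had 1 mouse far from the rest by Dixon's ratio of the gap to the range, where chance gives about 2.9. Kcna2 was 406 CPM (counts per 1000000) in young mouse 2 against 453 to 469 in the other young mice (ratio 0.767). Kcnc1 was 401 in the same mouse against 450 to 459 (ratio 0.845). Kcnn1 was 10.2 in old mouse 5 against 12.1 to 12.4 in the other old mice (ratio 0.889). Kcnt2 was 26.0 in old mouse 3 against 19.4 to 20.2 (ratio 0.86).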

How the results depend on the processing

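The count of 10 channel genes (8 lower, 2 higher) was the same under DESeq2 size factors, upper quartile scaling, a stricter filter and limma on the normalized counts. These settings called 2050 to 2099 of all genes tested. DESeq2's Wald test called 10, with 1 higher, beside 2098 of all 17736 genes tested. With no filter 13 were lower and 1 higher, beside 2802 of all 35028 genes tested. On TPM with limma, where the median of all genes was -0.142, 2 were lower and 0 higher, beside 518 of all 18492 genes called. The median over the channel genes was -0.2082. Leaving out 1 mouse gave 5 to 11 calls, 4 to 10 lower and 0 to 2 higher, beside 1516 to 2034 of all genes. The lowest total came without old mouse 5 (5, beside 1516) and the next without young mouse 1 (6, beside 1539). Cerebellar markers as a covariate gave 7 lower and 0 higher, with 1442 of all 18492 genes called. Olfactory bulb markers as a covariate left 1 higher, with 1954 of all genes called. A threshold of 0.01 kept 3 genes, Kcnj10, Kcne2 and Kcna2, all lower and 0 higher, and the share over all genes was not counted there. A threshold of 0.05 with a limit of 0.58 on the log2 fold change kept 1, lower, and 0 higher, beside 463 of all 18492 genes. Signs turned for genes that had not passed: Kcnab2 (-0.1498) and Kcnh3 (-0.02814) on TPM, Kcnab2 without a mouse (-0.001386 to 0.04538), and Kcnh3 (-0.007279) and Kcnk1 (0.01243) with the cerebellar covariate. The cause was not tested. Of the channel genes called, only Kcnj10 and Kcne2 passed in all 19 refits.

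Replicate numbers did not pair the mice: same-numbered young and old mice had correlated deviations of 0.170, -0.118, 0.0884 and -0.0243, and 2 of 4 correlated best with their own number. With the replicate block 6 channel genes were called and 0 were higher, beside 1811 of all 18170 genes tested. Depth limited the 12 genes under the filter, and Kcnn4, Kcnj14 and Kcnmb1 were measured at few counts.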
